A study of Mus musculus with 495 samples.

Results

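Fev, the ETS-family transcription factor that switches on the serotonin genes of serotonergic neurons, was followed here in single cells of the mouse embryonic pancreas together with 6 genes of serotonin handling: Gch1, Tph1, Tph2, Ddc, Slc18a1 and Maob. The 7 genes were listed by name from a table of 23002 genes and 495 cells. Fev was read in 169 cells at 20 counts per 1000000 (CPM) or more, Gch1 in 271, Ddc in 29.5% of all cells, Maob in 88, Slc18a1 in 45, Tph1 in 2, and Tph2 had 0 counts in all 495 cells. Among cells with every hormone under 1000 CPM, Fev was found in 71.6% of those with Neurog3 under 20 CPM, in 67.4% of those with Neurog3 from 20 to under 1000 CPM and in 12.6% of those above.

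Cells were sequenced with Smart-seq2, a plate method that reads whole transcripts of 1 cell per well. At embryonic stage E15.5, pancreas of the Neurog3-eGFP line, a knock-in with green fluorescent protein at the Neurog3 locus, gave plates coded Neurog3 (EA01 with 73 cells and EA03 with 70), endocrine (EA02 with 72 and EA05 with 85) and duct (EA04 with 66). At E17.5, plates EA06 (57 cells) and EA07 (72 cells) came from Neurog3-Cre, Rosa-mTmG pancreas, in which the Cre is named for Neurog3 and the Rosa reporter turns from membrane tomato to membrane GFP where Cre has acted. The labels name no animal, litter or sort gate, so a plate code counts as 1 sample without replicates, and nothing was tested. Intervals are exact 95% intervals that cover counting error only, and reads carry no molecular identifiers. Stage, genotype and plate cannot be told apart between E15.5 and E17.5.

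Neurog3 is the factor that starts endocrine differentiation in the embryonic pancreas, and it is expressed only for a short time in each cell. Serotonin is made from tryptophan in 2 steps, by a tryptophan hydroxylase (Tph1 outside the brain, Tph2 in neurons) and by the aromatic amino acid decarboxylase Ddc. Gch1 makes the first step towards tetrahydrobiopterin, the cofactor of the hydroxylases. Slc18a1 loads monoamines into vesicles, and Maob, an enzyme of the outer mitochondrial membrane, breaks them down. Beta cells make serotonin in pregnancy, and Fev is known from islet precursors and enterochromaffin cells.

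Counts per cell ranged from 200152 to 1182889, with a median of 533363. Rn45s, a ribosomal RNA gene, took 20.6% to 23% of counts on plates EA01 to EA04 and 8.83% to 10.3% on EA05 to EA07. The Cre transgene had 0 counts on the 5 plates of E15.5 and was read in 27 of 57 cells of EA06 and 47 of 72 of EA07, which follows the labels, although the table's column names give the knock-in word for these 2 plates too. The GFP transgene was at 20 CPM or more in 13, 16 and 16 cells of EA01, EA02 and EA03. It was so in 0 cells of EA04, 1 of 85 of EA05 and all cells of EA06 and EA07. Why EA05 had so few was not tested. The labelled tissue was checked on 6 endocrine markers (Chga, Chgb, Neurod1, Pax6, Isl1 and Rfx6): all 6 were at 20 CPM or more in the Neurog3, endocrine and E17.5 groups, and 1 of 6 was on the duct plate. On the duct plate, all 8 acinar markers were at 20 CPM or more as well as 7 of 8 duct markers, and 43 of its 66 cells had the acinar enzyme Cpa1 at 1000 CPM or more. Cells of the other 6 plates (429) were called hormone-positive at 1000 CPM of any of 5 hormones and named for the dominant one, and the 274 hormone-negative cells were split by Neurog3 into low (20 to under 1000 CPM, 43 cells), negative (under 20 CPM, 88 cells) and high (1000 CPM or more, all the rest). These are ranges of a level, not cell types; 41 cells had Neurog3 within 2-fold of 1000 CPM, between 500 and 2000, and 16 had a top hormone in that range.

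Fev lies on the minus strand of chromosome 1 (GRCm38 chr1:74881509-74885419), and Gch1 on the minus strand of chromosome 14 (chr14:47153895-47189413). Ddc (chr11:11814101-11898144), Maob (chrX:16709282-16817366), Slc18a1 (chr8:69037711-69089235), Tph1 (chr7:46644641-46672537) and Tph2 (chr10:115078641-115185022) also lie on the minus strand, in GENCODE M21. The 250 bases before the start of 3 members that were read in the same cells are shown 5′ to 3′ on the gene's strand, from RefSeq (GRCm38.p6), with GGAA, the core letters that ETS factors bind, in capitals on either strand (TTCC on the other). They are chr1:74885409-74885658 for Fev, chr14:47189414-47189663 for Gch1, and chr11:11898145-11898394 and chr11:11890409-11890658 for the 2 starts of Ddc.
Fev promoter: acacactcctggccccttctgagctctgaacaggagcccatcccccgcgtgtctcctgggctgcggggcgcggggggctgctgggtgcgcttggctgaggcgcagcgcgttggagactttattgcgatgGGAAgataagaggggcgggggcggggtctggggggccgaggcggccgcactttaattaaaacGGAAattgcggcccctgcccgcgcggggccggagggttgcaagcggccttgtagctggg
Gch1 promoter: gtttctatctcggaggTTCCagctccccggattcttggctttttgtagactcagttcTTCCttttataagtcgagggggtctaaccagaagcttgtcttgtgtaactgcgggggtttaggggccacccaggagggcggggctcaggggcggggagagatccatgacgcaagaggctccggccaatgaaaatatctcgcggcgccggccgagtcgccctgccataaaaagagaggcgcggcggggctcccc
Ddc upstream promoter: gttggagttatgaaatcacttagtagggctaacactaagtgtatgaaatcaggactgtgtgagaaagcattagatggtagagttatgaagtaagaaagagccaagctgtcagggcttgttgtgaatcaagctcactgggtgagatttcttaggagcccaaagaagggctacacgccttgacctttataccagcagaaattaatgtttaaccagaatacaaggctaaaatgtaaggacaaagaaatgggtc
Ddc downstream promoter: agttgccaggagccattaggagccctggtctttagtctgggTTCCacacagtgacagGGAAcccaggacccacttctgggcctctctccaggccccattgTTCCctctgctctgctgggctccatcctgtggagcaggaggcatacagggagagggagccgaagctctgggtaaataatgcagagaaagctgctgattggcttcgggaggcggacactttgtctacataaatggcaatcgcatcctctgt
GGAA occurs 2 times in the Fev window, 2 times in that of Gch1, 0 times before the upstream start of Ddc and 3 times before its downstream start. It stands in 93.4% of the 32851 promoter windows of this length, so its presence sets none of these genes apart. The E-box letters CANNTG, in 66.2% of windows, and their form CAGATG, in 14.4%, are in none of these 4 windows, nor is the longer ETS core CCGGAA, in 12%. Promoters of 5 of the 7 members were matched. These are letter matches only.

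Fev went with low or absent Neurog3. Its summed level was 159.7 CPM (156.9 to 163) in the Neurog3-high cells, 625 CPM (616 to 634) in the 43 Neurog3-low cells and 510.2 CPM (504 to 516) in the 88 Neurog3-negative cells. In single cells it ran from 0 through a median of 0 to 5659.9 CPM in Neurog3-high cells, from 0 through 301 to 2588 CPM in Neurog3-low cells, and from 0 through 209 to 3319.9 CPM in Neurog3-negative cells. The ranges overlap, because some Neurog3-high cells had as much Fev as any cell. What differed was how many cells had it: 18 Neurog3-high cells (12.6%, 7.63% to 19.2%), 29 of 43 Neurog3-low cells (67.4%, 51.5% to 80.9%) and 63 of 88 Neurog3-negative cells (71.6%, 61% to 80.7%).

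**Figure D1:**
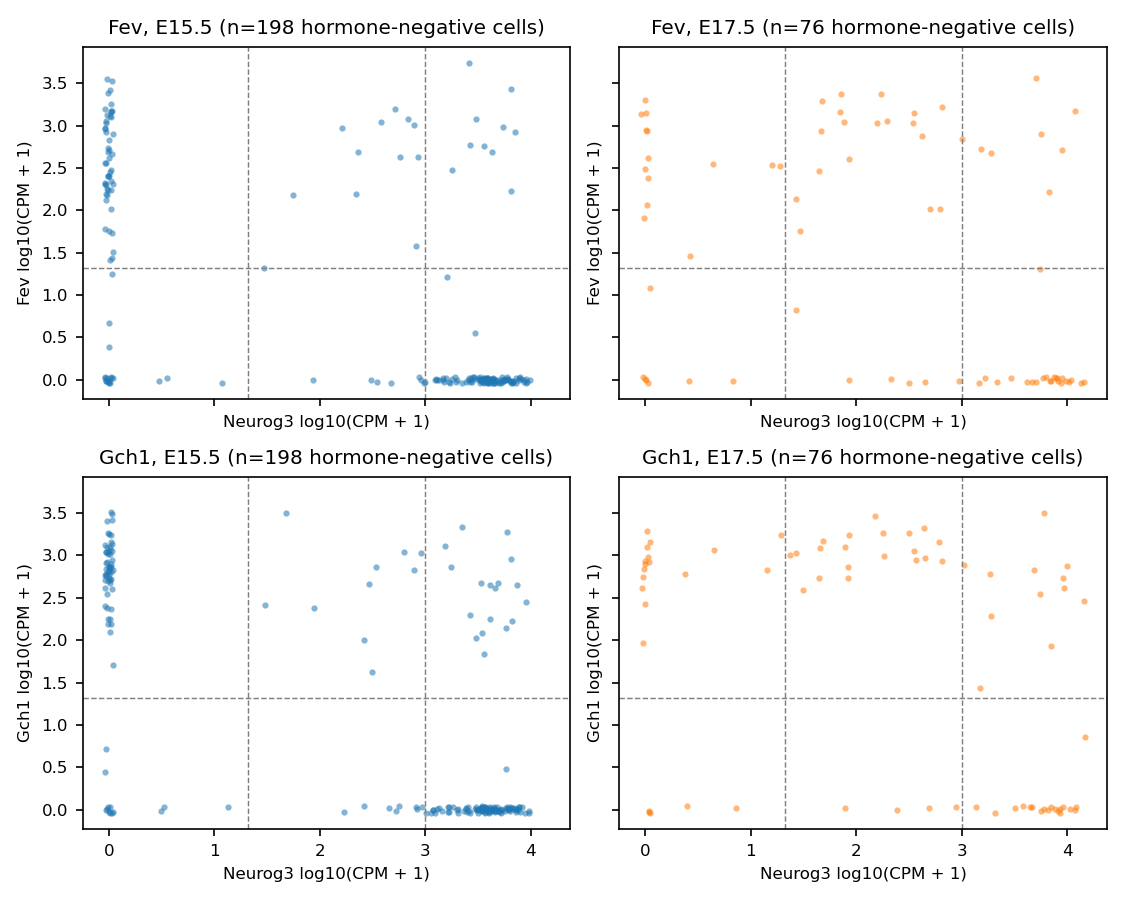
Fev (top) and Gch1 (bottom) against Neurog3 in each hormone-negative cell, as log10(CPM + 1), for E15.5 (left, 198 cells) and E17.5 (right, 76 cells); dots are slightly jittered and dashed lines mark 20 and 1000 CPM. Most cells right of the 1000 CPM line lie at 0 for both genes, while most cells at 0 Neurog3 lie above the 20 CPM line.

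The 18 Fev-positive cells among the Neurog3-high carried a median of 622 CPM, against 949 CPM in the positive Neurog3-low cells and 382 CPM in the positive Neurog3-negative cells. Of all Fev counts in the Neurog3-high class, 64.9% came from 5 cells. The level of that class thus rested on few cells.

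In finer bins of Neurog3, the share of Fev-positive cells differed most between the bins below and above 1000 CPM. The share was 74.7% (59 of 79) at 0 CPM of Neurog3, 77.8% (14 of 18) from 20 to 200 CPM and 60% (15 of 25) from 200 to 1000 CPM. It was 19% (4 of 21) from 1000 to 2000 CPM, 11.6% (5 of 43) from 2000 to 4000, 11.5% (7 of 61) from 4000 to 8000 and 11.1% (2 of 18) above. The 9 cells with Neurog3 above 0 and under 20 CPM had 4 positive.

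The same difference was seen on each plate. The Fev-positive share of Neurog3-high cells was 3 of 32 on EA01, 4 of 36 on EA02, 2 of 39 on EA03, 1 of 5 on EA05, 2 of 12 on EA06 and 6 of 19 on EA07. That of Neurog3-negative cells was 11 of 15, 9 of 14, 7 of 10, 22 of 28, 4 of 9 and 10 of 12 in the same order. The lowest share in Neurog3-negative cells (44.4%) was above the highest in Neurog3-high cells (31.6%). The summed level was higher in Neurog3-negative cells on 5 of 6 plates, EA06 being the exception at 391 against 398 CPM. On EA01, EA02 and EA03 the Neurog3 level went with the well rows. Its median was 2688, 3557 and 3396 CPM over all cells of rows A, B, E and F, and 0 in rows C and G of each. The labels do not say how the rows were filled, so on these plates the Neurog3 classes are not independent of well position.

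Against the Neurog3-high cells, the log2 ratio of Fev (with 5 CPM added to both levels) was 1.94 in Neurog3-low cells, 1.67 within E15.5 and 1.54 within E17.5. It was 1.65 in Neurog3-negative cells, 2.18 within E15.5 and 0.69 within E17.5, where it was not past 2-fold. The median over all genes measured was 0.19 and 0.14 in the 2 comparisons. Between Neurog3-negative and Neurog3-low cells the order of Fev changed with the plates. Neurog3-negative cells had more on EA01 (941 against 543 CPM), EA02 (574 against 323) and EA03 (430.2 against 103.3). Neurog3-low cells had more on EA05 (455 against 406 CPM), EA06 (827 against 391) and EA07 (738 against 430.2), which are also the plates with less Rn45s. The part of the plates in this was not tested, and with 2 to 16 Neurog3-low cells on a plate no order of the 2 classes is read from it. Over all plates, Maob was the 1 member of 5 measured that was 2-fold higher in Neurog3-negative cells (1.28, but 0.20 within E17.5). There, 9.34% of 8124 genes were higher, and no member was lower, against 11.6%. Of the 5, Slc18a1 reached 20 CPM in Neurog3-negative cells alone (26.4 against 11.1 CPM). The Maob-positive shares were close, at 17% of Neurog3-negative and 14% of Neurog3-low cells. In each class few cells carried the level, with 70.8% and 98% of Maob counts from 5 cells.

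Of the 7 members, Fev, Gch1 and Ddc were at 20 CPM or more in both Neurog3-low and Neurog3-high cells, and all 3 were 2-fold or more higher in Neurog3-low cells; of the 7982 genes at 20 CPM in either class, 17% were higher and 8.90% lower. Between Neurog3-negative and Neurog3-high cells, Fev and Gch1 of these 3 were higher, where 14.9% of 7906 genes were higher and 9.66% lower. Maob reached 20 CPM only in the class where it was higher, in both comparisons, so the filter set its direction and it is not counted. Slc18a1 did so in the second, at a log2 ratio of 0.65, and is not counted there. These shares describe summed classes of cells from 6 plates, which are not replicates. The 7982 and 7906 genes include genes that reached 20 CPM in 1 class only. Their shares are thus not like for like with the members counted.

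Fev was lower in hormone-positive cells. Among cells without Neurog3, Fev was at 131.9 CPM in hormone-positive and 510.2 CPM in hormone-negative cells, a log2 ratio of -1.91 (-2.29 within E15.5 and -1.12 within E17.5). The positive share was 39.5% (51 cells) against 71.6% (63 cells), and positive cells held a median of 140 CPM against 382 CPM. Both the number of cells and the level in them were thus lower. Fev was the 1 member 2-fold lower among 5 measured, against 8.89% of 7875 genes, and Maob the 1 higher, against 6.39%. The log2 ratio of Maob was 1.14, but it was under 2-fold within E15.5 (0.88), within EA01 to EA03 (0.70) and at the lowest with a plate left out (0.95).

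By dominant hormone, Fev was at 291 CPM in the 12 pancreatic polypeptide cells, 166 CPM in the 27 somatostatin cells, 132.7 CPM in the 28 ghrelin cells, 89.6 CPM in the 19 glucagon cells and 84.4 CPM in the 69 insulin cells. The positive shares stood in another order: 66.7%, 29.6%, 21.4%, 42.1% and 42%. Insulin cells were thus often positive at a low level, with a median of 127.98 CPM in the positive cells and a highest cell of 868 CPM. Somatostatin cells were seldom positive, with single cells up to 2544 CPM, and 1 cell gave 45.7% of that class's Fev counts. In insulin cells Fev was below the Neurog3-negative hormone-negative cells on each of 6 plates, at 29 to 181 CPM against 391 to 941 CPM. Pancreatic polypeptide cells did not show this on every plate. They were above the Neurog3-negative hormone-negative cells on EA03 (484 against 430.2 CPM, 2 cells) and EA05 (419 against 406 CPM, 4 cells). On EA01, EA06 and EA07 they were below. Across plates the levels of insulin and glucagon cells overlapped, as did those of Neurog3-low and Neurog3-negative cells; somatostatin, ghrelin and Neurog3-high cells also overlapped, so no order is read among them. Ghrelin cells had Fev in 2 of 2 cells on EA02 and 4 of 6 on EA07, and in none of the 12 on EA06 or of the few on EA01, EA03 and EA05.

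**Figure D2:**
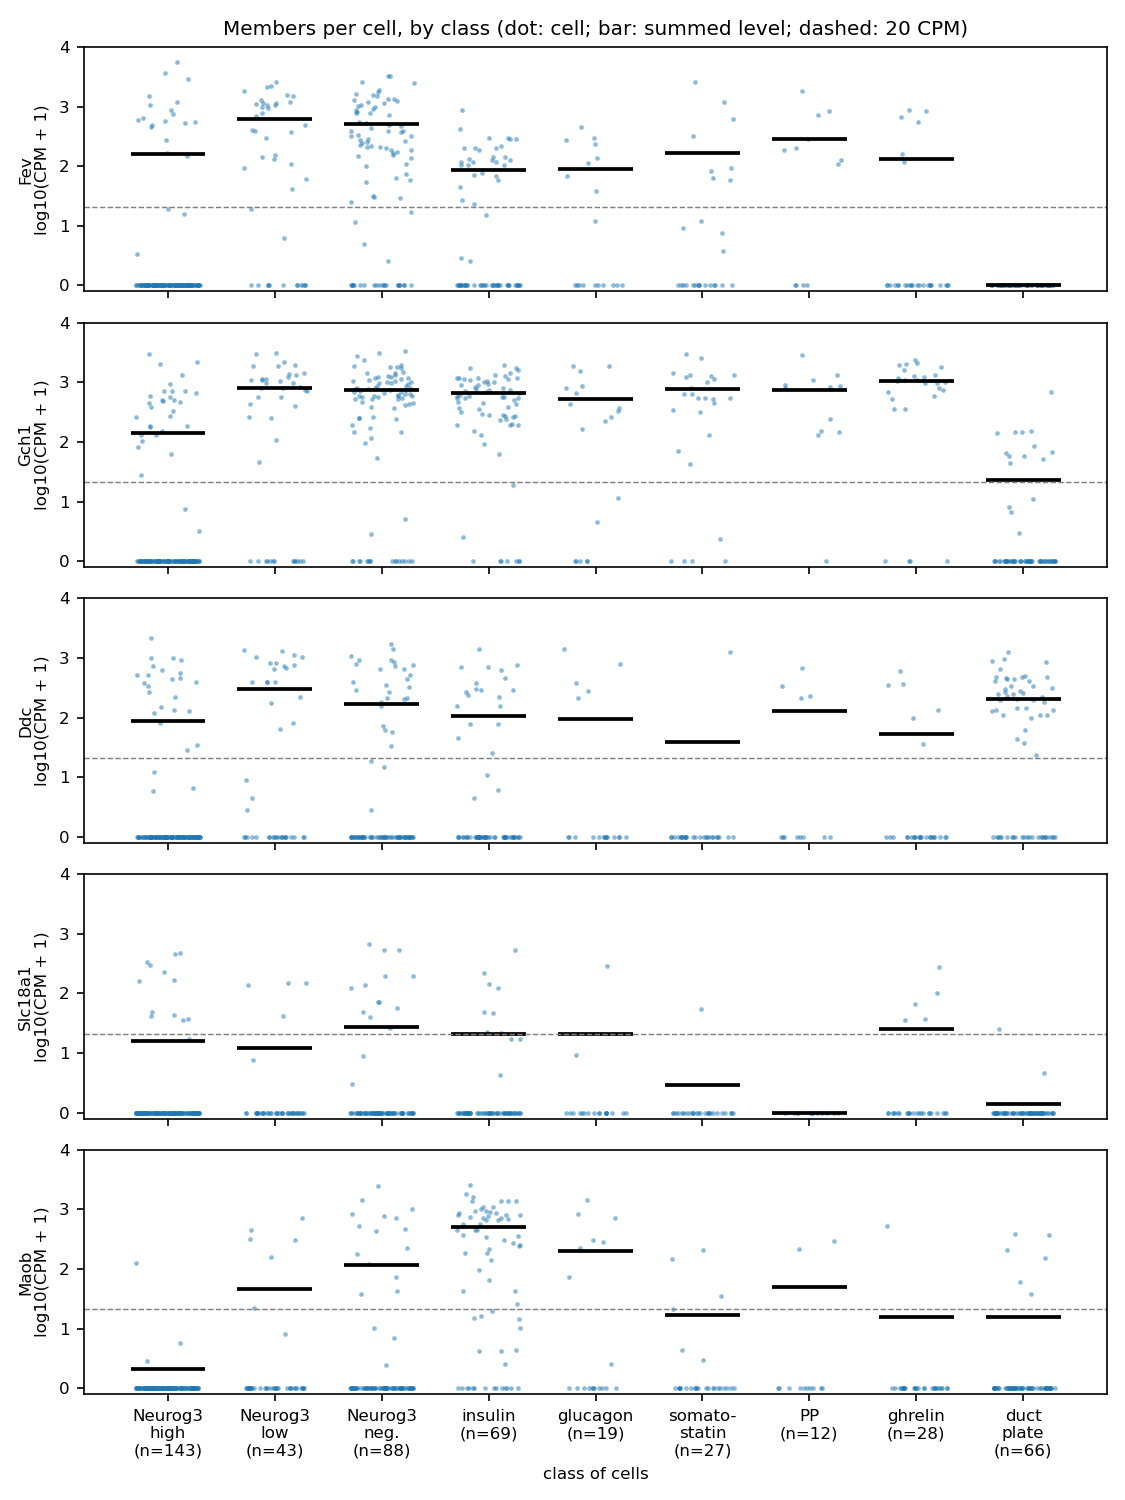
Level per cell, as log10(CPM + 1), of Fev, Gch1, Ddc, Slc18a1 and Maob (top to bottom) in 9 classes of cells; each dot is a cell, black bars are the class's summed level and the dashed line is 20 CPM. Fev is densest in the Neurog3-low and Neurog3-negative classes, Gch1 is high in all classes but Neurog3-high and the duct plate, and Maob is densest in insulin-dominant cells.

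Gch1 was higher in the same hormone-negative classes as Fev, and was also high in hormone-positive cells. It was at 141.2 CPM in Neurog3-high cells, 813 CPM in Neurog3-low cells and 752 CPM in Neurog3-negative cells, with 30 (21%), 30 (69.8%) and 70 (79.5%) cells positive. Its cells ran from 0 through a median of 0 to 2934 CPM in the first class, from 0 through 710 to 3139 CPM in the second and from 0 through 594 to 3393 CPM in the third. The log2 ratio over Neurog3-high cells was 2.48 in Neurog3-low cells and 2.37 in Neurog3-negative cells, and both were past 2-fold within each stage. Plate by plate, Gch1 was higher than in Neurog3-high cells in Neurog3-negative cells on 6 of 6 plates and in Neurog3-low cells on 4 of 6, with a mean of the plates' log2 ratios of 0.67 in the latter. Between hormone-positive and hormone-negative cells Gch1 differed little: without Neurog3 it was at 699 CPM with hormone and 752 CPM without, a log2 ratio of -0.10, or 0.00 and 0.01 with edgeR and DESeq2 scaling.

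By hormone, Gch1 ranged from 533 CPM in glucagon cells to 1036 CPM in ghrelin cells, with 63.2% to 91.7% of cells positive. Its plate values overlapped between hormones: insulin cells ran from 294 CPM on EA06 to 924 CPM on EA05, and ghrelin cells from 360.3 CPM on EA01 to 1217 CPM on EA05. Ghrelin cells were above insulin cells on 4 of the 6 plates, EA02 and EA03 being the exceptions. Per kilobase of exon, over all 429 cells outside the duct plate, Fev stood at 169 CPM per kilobase, Gch1 at 91.3, Maob at 43.4, Ddc at 28.5 and Slc18a1 at 3.2.

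The tryptophan hydroxylases were all but absent. Tph2 had 0 counts, which allows at most 0.0315 to 0.103 CPM in a group (3 counts of its total). Tph1 had 389 counts in all, from 2 cells of plate EA07 at E17.5, both hormone-negative and Neurog3-high, in wells B7 and D7. The cell in B7 had 127.7 CPM of Tph1, 1089.7 CPM of Neurog3, 653 CPM of Fev, 708 CPM of Gch1, 1014 CPM of Ddc and 301 CPM of Slc18a1, and 0 of Maob. It was the only one of the 429 cells outside the duct plate with a hydroxylase, Gch1 and Ddc all at 20 CPM or more. The cell in D7 had 493 CPM of Tph1, 5785 CPM of Neurog3, 737 CPM of Fev, 2934 CPM of Gch1 and 127.3 CPM of Maob, with Ddc at 4.78 CPM and 0 of Slc18a1. Chga and Chgb, granule proteins listed with both the endocrine and the enterochromaffin genes, were high in them. Chga was at 4369 CPM in B7 and 4422 CPM in D7, and Chgb at 15439 and 2448 CPM. Among other listed genes of serotonin cells, Slc6a4, Slc18a2, Lmx1a, Lmx1b and Tac1 were at 0 in both cells. The mast cell genes Cpa3 and Hdc were at 0 too, while Kit was at 362 and 1027 CPM. Kit was not particular to these 2 cells. Over all Neurog3-high cells it ran from 0 through a median of 13.8 to 2481 CPM, and the other 6 mast cell genes listed had 0 counts. At E15.5, Tph1 had 0 counts in the Neurog3, endocrine and duct codes, which allows a share of cells with a count of up to 2.10%, 1.91% and 4.55% (3 cells of the total, for counting error only) and does not limit the share that expresses the gene.

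Ddc was found both in endocrine plates and on the duct plate. In hormone-negative cells it was at 87.6 CPM in Neurog3-high, 303 CPM in Neurog3-low and 166 CPM in Neurog3-negative cells, with 23 (16.1%), 19 of 43 (44.2%) and 27 of 88 (30.7%) positive. The highest cells held 2187, 1368 and 1719 CPM, so the classes overlap over their whole range. Low over high gave a log2 ratio of 1.73 (1.39 and 1.42 within E15.5 and E17.5). Negative over high gave 0.89, with 1.53 within E15.5 and -0.76 within E17.5, so no direction is read for it. In hormone-positive cells Ddc was read in 19 of 69 insulin cells, 5 of 19 glucagon cells, 4 of 12 pancreatic polypeptide cells, 6 of 28 ghrelin cells and 1 of 27 somatostatin cells. That 1 somatostatin cell, at 1272 CPM, gave the whole of its class's level of 38 CPM.

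On the duct plate Ddc was not lower than elsewhere. It was at 207 CPM there, in 42 of 66 cells (63.6%, 50.9% to 75.1%), against 113.1 CPM and 22% of the 300 other cells of E15.5. Split after the data were seen by Cpa1 at 1000 CPM, 38 of the 43 cells above it had Ddc (299 CPM) and 4 of the 23 below it had (46.4 CPM). Fev had 0 counts on this plate, against 236 CPM in the other cells of E15.5, at least 2296-fold lower against a floor of 3 counts over the plate. Gch1 was at 21.99 against 488 CPM (log2 ratio -4.19), Maob at 14.5 against 144.5 CPM (-2.94) and Slc18a1 at 0.412 against 20.4 CPM (-2.23). Of the 2 members at 20 CPM on both sides, Gch1 was 2-fold lower, where 21.4% of 8056 genes were lower, and Ddc, at a log2 ratio of 0.84 with 1.15 without EA05, was not past 2-fold, where 16.4% were higher. Fev, Maob and Slc18a1 reached 20 CPM only outside the duct plate, so the filter set their direction. The 8056 genes include such genes, so their shares are not like for like with the 2 members counted. The duct code is 1 plate, so its code cannot be told apart from its plate.

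**Figure D3:**
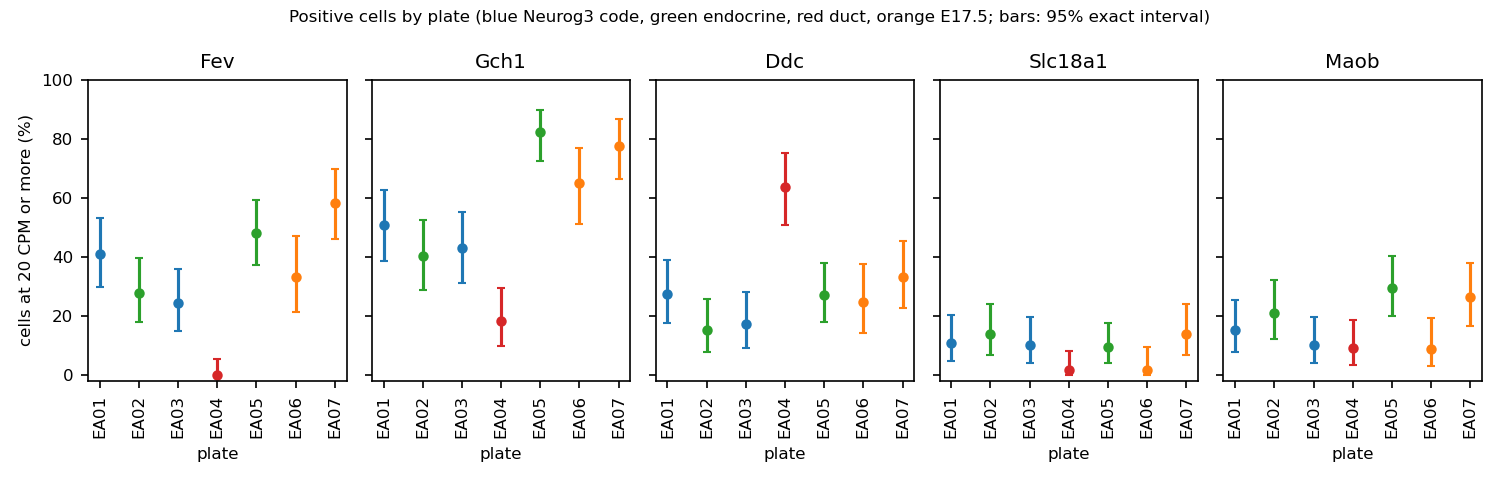
Share of cells at 20 CPM or more of each member on each of the 7 plates, with exact 95% intervals; colours give the plate code. Fev is at 0 of 66 on the duct plate EA04 and between 24.3% and 58.3% on the others, while Ddc is highest on EA04 at 63.6%.

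Slc18a1 was rare everywhere. It was positive in 44 of the 429 cells outside the duct plate (10.3%), with the highest cell at 669.9 CPM and few cells giving most of its 4337 counts, the top cell alone 8.23%. Its class levels lay between 0 in the 12 pancreatic polypeptide cells (0 counts, which allows up to 0.375 CPM) and 26.4 CPM in Neurog3-negative hormone-negative cells. It was at 15 CPM in Neurog3-high and 11.1 CPM in Neurog3-low cells, with 8.39% and 9.30% positive. In these classes 5 cells gave 75.6% and 100% of its counts, so no order of the 2 is read. The start of Slc18a1 overlaps Atp6v1b2, a proton pump subunit on the other strand (chr8:69088646-69113711), and the strand of counting is not given in the sources used here. Atp6v1b2 was at 20 CPM or more in 77.3% of Slc18a1-positive and 60.5% of Slc18a1-negative cells, and their per-cell levels had an r of 0.08 over 429 cells. Ddc likewise overlaps the antisense gene 1700042O10Rik, read in 5 Ddc-positive cells (4.81%) and 2 of 325 others.

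Maob was most abundant in insulin cells. Its summed level was 1.07 CPM in Neurog3-high cells (1 positive, 0.699%), 45.8 CPM in Neurog3-low cells (6 of 43) and 118.3 CPM in Neurog3-negative hormone-negative cells (15 of 88). Among hormone-positive cells it was at 502 CPM in insulin cells (46 of 69, 66.7%), 198 CPM in glucagon cells (7 of 19), 48.3 CPM in pancreatic polypeptide cells (2 of 12), 15.9 CPM in somatostatin cells (4 of 27) and 14.8 CPM in ghrelin cells (1 of 28). Insulin cells ran from 0 through a median of 269 to 2591 CPM. On the 6 plates they were at 581, 762, 454, 405, 347 and 688 CPM from EA01 to EA07 without EA04, and no somatostatin, ghrelin or pancreatic polypeptide class was above 131.97 CPM on any plate. Glucagon cells overlapped with them, at 574 CPM on EA01 (3 cells).

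The log2 ratio of Maob in insulin cells over the other 86 hormone-positive cells was 3.02, with 2.17 within E15.5 and 4.78 within E17.5. It was the 1 member of 5 measured that was 2-fold higher, against 8.26% of 7834 genes. None was lower, against 13.7%. Of the 5, Slc18a1 reached 20 CPM on the insulin side alone (20.02 against 13.1 CPM). Fev was at -0.86 and Gch1 at -0.28 in the same comparison. The Maob ratio of single plates was above 0 on 6 of 6 plates, from 1.45 to 5.22. Hormone genes define these classes, and Maob was not used for them. Acinar markers were also higher in the insulin class, with 5 of 8 at 20 CPM or more, among them Cpa1 at 141.8 against 5.31 CPM and Cela1 at 54.4 CPM against 0. Their summed level per cell had a median of 0 in the insulin class and in each of the other hormone classes, and ran up to 38652 CPM in insulin cells and up to 1428 CPM in the others. Without the 1 insulin cell and 2 other cells at 1000 CPM or more of these markers, a split made after seeing the data, the Maob ratio was 3.003.

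Between the plate codes of E15.5, Fev differed little. The log2 ratios of Gch1 and Slc18a1, with 5 CPM added, were just past 2-fold and did not stay so in all settings. The endocrine code had 245 CPM of Fev and the Neurog3 code 225 CPM (log2 ratio 0.12), with 38.9% and 32.9% of cells positive. Single plates ran from 41.1% on EA01 to 24.3% on EA03 for the Neurog3 code and from 27.8% on EA02 to 48.2% on EA05 for the endocrine code, so the codes overlapped. Gch1 was at 632 against 311 CPM, a log2 ratio of 1.01 that was -0.16 without EA05, where 82.4% of cells were positive. Slc18a1 was at 27.9 against 11.2 CPM (1.03, and 0.98 within EA01 to EA03). Maob was at 177 against 104.9 CPM (0.72, and 0.58 within EA01 to EA03), with 25.5% and 12.6% of cells positive. Slc18a1 reached 20 CPM only in the endocrine code, where it was higher, and is not counted, although the shares over all genes include such genes. Of the other 4 members measured, Gch1 was higher, where 7.23% of 7401 genes were, and none was lower, against 4.47%; with edgeR and DESeq2 scaling Gch1 was at 0.92 and 0.92 and Slc18a1 at 0.96 and 0.95, no longer past 2-fold. Since EA02 alone did not show the Gch1 difference, it rested on EA05.

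At E17.5 Fev was at 336 CPM with 47.3% of cells positive, against 236 CPM and 36% in the 300 cells of E15.5 outside the duct plate, a log2 ratio of 0.50 and 0.59 against EA05 alone. EA06 had 33.3% and EA07 58.3% of cells positive. Gch1 was at 0.53, Ddc at 0.39, Slc18a1 at -0.56 and Maob at -0.76, and against EA05 alone they were at -0.27, -0.07, -0.96 and -1.13, the last past 2-fold. Against all plates of E15.5, 0 of 5 members were past 2-fold, against 13.4% of 7906 genes higher and 2.21% lower. Of the 5, Slc18a1 reached 20 CPM at E15.5 alone (20.4 against 12.2 CPM). Within Neurog3-high cells alone, Fev was at 258 CPM at E17.5 (8 of 31 cells) and 117.2 CPM at E15.5 (10 cells, 8.93%), a log2 ratio of 1.11. Gch1 was at 236 and 100 CPM (1.20), but at -1.22 against the 5 Neurog3-high cells of EA05. These 2 of 3 members measured were higher, against 24.7% of 7801 genes, and 0 were lower, against 8.56%; with edgeR and DESeq2 scaling Fev was at 0.80 and 0.82 and Gch1 at 0.89 and 0.91, no longer past 2-fold.

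Fev and Gch1 were found in the same cells. Of the 169 Fev-positive cells, 86.4% (80.3% to 91.2%) had Gch1, 66 (39.1%) Ddc, 42 (24.9%) Maob and 25 (14.8%) Slc18a1. Of the 260 Fev-negative cells outside the duct plate, the shares were 43.5%, 14.6%, 15.4% and 7.31%. Median counts per cell were 599446 in the first set and 527028 in the second, and classes of cells differ between them.

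Within Neurog3-high cells, Gch1 was in 11 of 18 Fev-positive cells (61.1%, 35.7% to 82.7%) and 19 Fev-negative cells (15.2%, 9.41% to 22.7%). Ddc was in 8 (44.4%) and 15 (12%). In Neurog3-negative hormone-negative cells, Gch1 was in 57 of 63 (90.5%) and 13 of 25 (52%), while Ddc was in 33.3% and 24%, with intervals that overlap. In hormone-positive cells, Gch1 was in 54 of 59 (91.5%) and 75 of 96 (78.1%), and Ddc in 21 of 59 (35.6%) and 14 of 96 (14.6%). Maob was in 24 of 59 (40.7%) and 36 of 96 (37.5%) of these cells, so it did not go with Fev there. Slc18a1 was in 10 of 59 and 5 of 96.

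**Figure D4:**
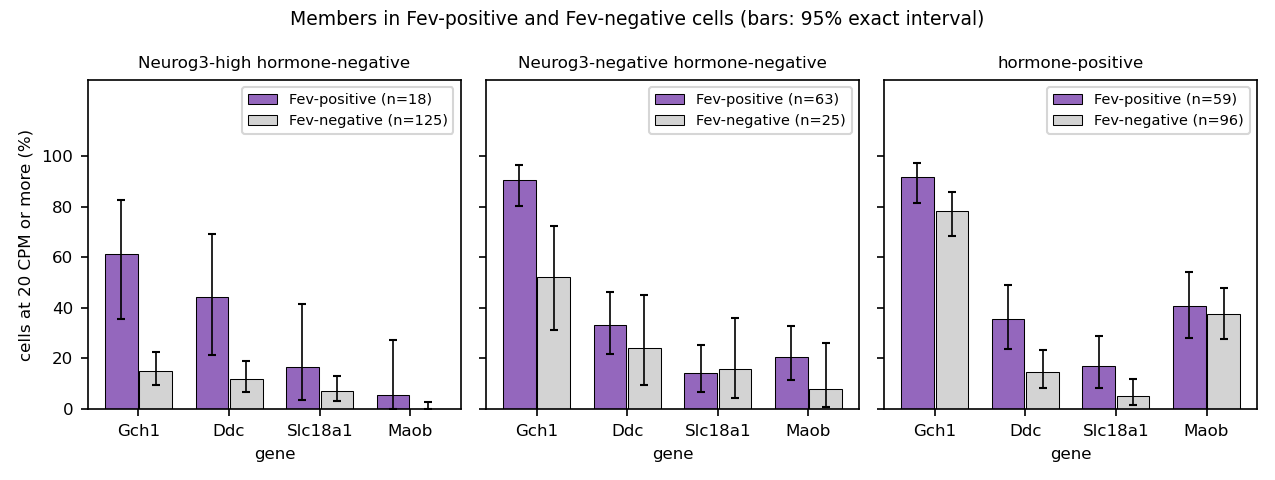
Share of cells at 20 CPM or more of Gch1, Ddc, Slc18a1 and Maob among Fev-positive (purple) and Fev-negative (grey) cells of 3 classes, with exact 95% intervals. In Neurog3-high cells Gch1 is at 61.1% against 15.2% and Ddc at 44.4% against 12%, while Maob in hormone-positive cells is at 40.7% against 37.5%.

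Fev, Gch1 and Ddc were all at 20 CPM or more in 61 of the 429 cells, 41 hormone-negative and 20 hormone-positive. Slc18a1 joined them in 7 cells, and all of Fev, Gch1, Ddc, Slc18a1 and Maob were in 3. Of the Neurog3-high cells, 88 had none of the 5, as had 12 hormone-positive cells.

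The genes whose level per cell was most like that of Fev, by Pearson's r of log2(CPM + 1) over the 429 cells and 7947 genes, were Chgb (0.51), Hmgn3 (0.48), Pax6 (0.48), Cryba2 (0.48), Gch1 (0.45), Cpe (0.40), Cldn4 (0.39), Slc35d3 (0.38), Fam183b (0.38) and Rap1b (0.38). Chgb is a granule protein, Pax6 an islet transcription factor, Cpe a prohormone-processing enzyme and Cldn4 a tight junction protein. Gch1 was thus 5 in rank, Ddc 46, Slc18a1 780 and Maob 2081. In the 274 hormone-negative cells alone, r was 0.68 for Chgb, 0.64 for Pax6 and 0.63 for Gch1. Cryba2, a crystallin gene, is the next gene to Fev on the same strand, 4515 bases away (chr1:74889934-74893143), and was read in 86.4% of Fev-positive and 44.6% of Fev-negative cells. The lowest r was that of Cbfa2t3 (-0.40), a transcriptional co-repressor. All these cells share plates and depth, and the values are a description.

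For Gch1 the highest r was with Fam183b (0.62), and Neurog3 was lowest of all genes (-0.54). For Ddc the values were low, with Cryba2 at 0.30 and Fev next at 0.28. For Maob the most like genes were Ins1 (0.59), Ins2 (0.59), Ppp1r1a (0.58), G6pc2 (0.57) and Slc30a8 (0.55), the last a zinc transporter of insulin granules, and Neurog3 was again lowest (-0.41).

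The rest of the pathway was thin. Slc18a2, the other vesicle transporter, was at 2.13 to 14.5 CPM in every class of cells outside the duct plate. Slc6a4, the serotonin transporter, was at 0 counts in all 429 of these cells and at 5.42 CPM on the duct plate, from 2 cells. Maoa, the other monoamine oxidase, was at 41.1 CPM on the duct plate (18 of 66 cells) and at most 19.8 CPM in any other class. Aanat, Asmt and Dbh, which make melatonin and noradrenaline, are dark in every class of the plot of pathway levels.

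**Figure D5:**
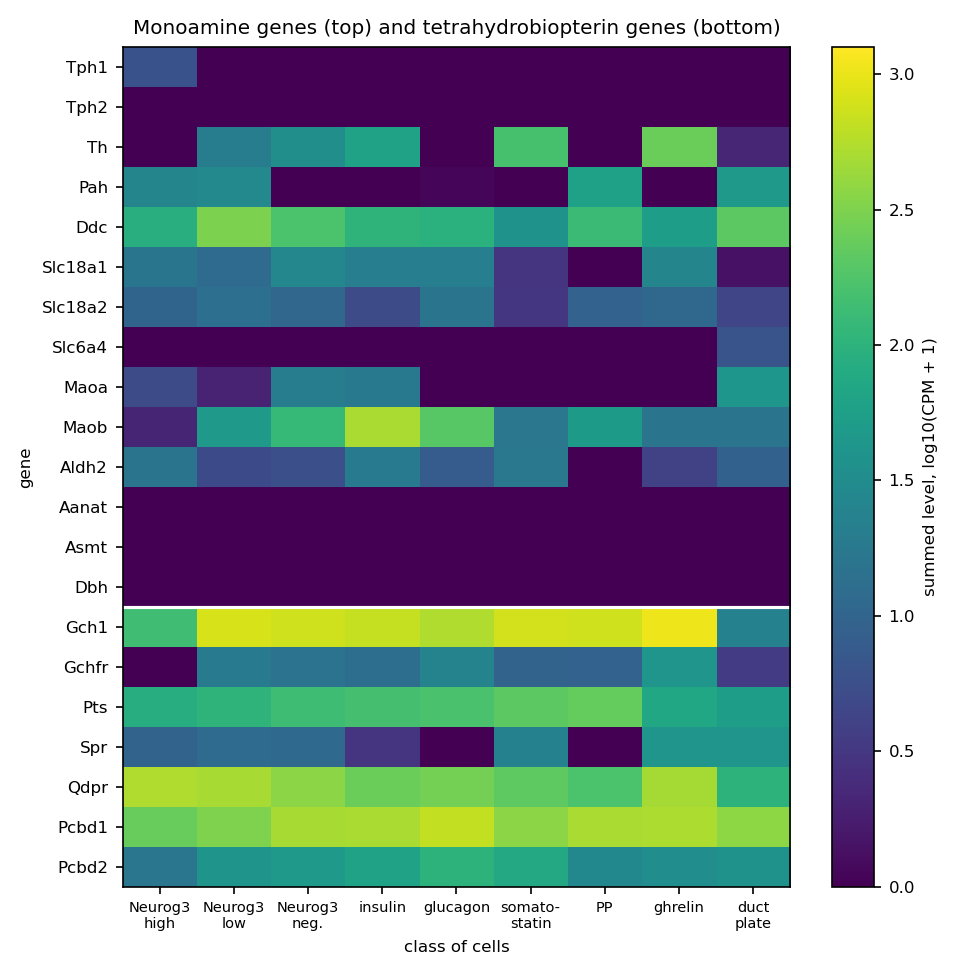
Summed level, as log10(CPM + 1), of 14 monoamine genes (above the white line) and 7 tetrahydrobiopterin genes (below it) in 8 classes of cells and on the duct plate. Ddc and Gch1 are read in every class, Tph1 is seen in the Neurog3-high class alone, from 2 cells, and Tph2 in none.

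Among the tetrahydrobiopterin genes beside Gch1, Pcbd2, a recycling enzyme, was at 15.6 CPM in Neurog3-high, 39 CPM in Neurog3-low and 44.8 CPM in Neurog3-negative cells. Pts, the second enzyme of the path, was at 84.9 CPM in Neurog3-high, 101.4 CPM in Neurog3-low and 134.8 CPM in Neurog3-negative cells. Qdpr, which recycles the cofactor, was at 534, 489 and 360.4 CPM. Gchfr, the regulator protein of the Gch1 enzyme, had 0 counts in the Neurog3-high cells and was at 17.2 CPM in Neurog3-low cells. Spr, which makes the last step, was at 8.62, 11.2 and 10.3 CPM.

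None of the 14 serotonin receptor genes was at 20 CPM in either side of any comparison; Htr5b was at 32.96 CPM in pancreatic polypeptide cells and 22.5 CPM in ghrelin cells, and Htr1d at 17.6 CPM in glucagon cells, each from 1 positive cell. Of factors known from serotonergic neurons and enterochromaffin cells, Gata2, Gata3 and Pou3f2 had 0 counts in every class outside the duct plate, Lmx1b was at most at 3.63 CPM and Lmx1a at 9.08 CPM. Nkx2-2 was at 291 CPM in Neurog3-high and 140.3 CPM in Neurog3-negative cells, opposite in direction to Fev. Of the other islet factors, Pax4 was at 1252 and 280.2 CPM in the same classes, while Pax6 stood at 129.6 and 537 CPM and Isl1 at 353 and 894 CPM.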

How the data were processed

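Whole-transcript reads of 495 single cells on 7 plates were turned by the authors into 1 table of raw counts per gene and cell, deposited without normalization. FastQC, STAR and HTSeq on mm10 are named per the submitters' processing notes, and no source used here gives their versions or the use of strand. The members and gene lists were chosen with earlier results of these data known. Groups are the plate codes in the labels, which name no animal, so each is 1 sample and no test was run. For each group or class, counts were summed over cells and divided by summed totals (CPM), with exact Poisson intervals. A cell was positive at 20 CPM, and shares have Clopper-Pearson intervals at 95%. Log2 ratios used a pseudocount of 5 CPM, which understates changes of low genes, and a gene was measured at 20 CPM in either side and called at 2-fold. All 7 members were named, with listed genes by level and the 10 genes most like Fev. Doublets were not called, and all deposited cells were used. Alternatives were edgeR 4.0.16 and DESeq2 1.42.0 scaling factors (used for scaling alone), other pseudocounts and thresholds, cells thinned to 200000 counts, and leaving out each plate. Splits by stage and by plates EA01 to EA03 or EA05 to EA07 were added after seeing the data, as were means over plates and a split by acinar markers. Some listed genes are not reported here. Steps were tested on simulated data. Python 3.11.15 and R 4.3.3 were used.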

Additional observations from a re-analysis of the deposited data

How the results depend on the processing

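The 10 main values were recomputed under alternatives: 70 recomputed values stayed within their counting interval and 66 moved. A sign change counted as a reversal only for log2 ratios past 2-fold, and those among the main values had none. Shares of cells cannot change sign, so this says nothing of them. Intervals cover counting error only and are narrow, so small shifts count as moved. Fev in Neurog3-low over Neurog3-high cells, 1.94 on the log2 scale, was 1.73 with edgeR and 1.74 with DESeq2 scaling, 1.84 without Rn45s, 1.84 with a pseudocount of 20 CPM, 1.98 and 1.88 with hormone thresholds of 500 and 5000 CPM, 1.67 and 1.5 with Neurog3-high set at 500 and 2000 CPM, 1.67 within E15.5, 1.54 within E17.5 and 1.76 to 2.15 with each plate left out. Fev in hormone-positive over hormone-negative cells, -1.91, was -1.81 and -1.80 with edgeR and DESeq2 scaling, -1.80 with a pseudocount of 20, -2.27 with hormones at 5000 CPM, -1.99 with Neurog3 at 100 CPM, -1.87 without well rows D and H of EA01 to EA03, -2.29 within E15.5, -1.12 within E17.5 and -2.08 to -1.65 with each plate left out. Maob in insulin over other hormone-positive cells, 3.02, was 3.14 and 3.16 with edgeR and DESeq2 scaling, 2.82 as a mean of the cells' own CPM, 3.1 and 2.75 with pseudocounts of 1 and 20, 3.11 and 2.84 with hormones at 500 and 5000 CPM, 3.11 without well rows D and H, 2.17 within E15.5, 4.78 within E17.5 and 2.60 to 3.38 with each plate left out. Fev at E17.5 over E15.5, 0.50, was 0.29 with edgeR and 0.29 with DESeq2 scaling, 0.52 as a mean of the cells' own CPM, 0.37 without Rn45s, 0.47 with a pseudocount of 20, 0.46 without well rows D and H, 0.59 within plates EA05 to EA07 and 0.34 to 0.62 with each plate left out. The Fev-positive share of the Neurog3 code, 32.9%, was 24.3% without EA01 and 41.1% without EA03. That of the endocrine code, 38.9%, was 27.8% without EA05 and 48.2% without EA02, and that of E17.5, 47.3%, was 33.3% without EA07 and 58.3% without EA06. Among Neurog3-high cells it was 25.8% within E17.5. Among the other log2 ratios past 2-fold, 3 recomputed values changed sign: Gch1 in the endocrine over the Neurog3 code, 1.01, was -0.16 without EA05 and -0.16 within EA01 to EA03, and 1.44 without EA02, and Gch1 at E17.5 in Neurog3-high cells, 1.20, was -1.22 within EA05 to EA07. Ratios under 2-fold changed sign 33 times, over 17 results, so no direction is read from them. The causes were not tested. No paired analysis was possible between plate codes, because the labels name no replicate that they share. Cell classes share plates: with each plate as a block, a pairing added after seeing the data, the mean of the plates' log2 ratios was 1.48 for Fev in Neurog3-low over Neurog3-high cells (above 0 on 6 of 6 plates), -2.06 for Fev in hormone-positive over hormone-negative cells (below 0 on 6 of 6) and 3.14 for Maob in insulin over other hormone-positive cells (above 0 on 6 of 6).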

Other observations

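Th, the tyrosine hydroxylase of dopamine synthesis, which uses the same cofactor as the tryptophan hydroxylases, was read in more cells than they were. It had 0 counts in Neurog3-high, glucagon and pancreatic polypeptide cells. Its summed level was 249.7 CPM in ghrelin cells (9 of 28 positive), 156.3 CPM in somatostatin cells (8 of 27), 59.7 CPM in insulin cells (14 of 69), 32.7 CPM in Neurog3-negative hormone-negative cells (4 of 88) and 19.2 CPM in Neurog3-low cells (2 of 43). These levels have no replicate and were not tested.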
